A study of Mus musculus with 12 samples.

Results

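The cystatin genes *Cst3*, *Cst8*, *Cst9*, *Cst12*, *Cst13* and *Cstl1* were followed in the mouse testis while its first germ cells matured to spermatids. These 6 genes, of 37675 listed, were chosen by symbol on the basis of their known levels in these same libraries, so their levels are a description and no test was run on them. The samples were whole testes from the inbred strain C57BL/6NHsd at postnatal day (PND) 7, 14, 17, 21 and 28, with 2 mice at each age and no treatment or genetic change. The RNA was depleted of ribosomal RNA and sequenced as reads of 50 bases, and levels are given as RPKM, counted reads scaled to exon length and to the reads of the library, unless a count or CPM (counts scaled to the normalized library size only) is named. Each PND 7 mouse had been split over 2 barcodes, which were joined here by the sum of their counts and the mean of their RPKM, so 12 libraries gave 10 mice. A whole testis holds many cell types, the cell that held each transcript was not measured, and fewer cells of a type and less RNA per cell cannot be told apart in such samples.

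Cystatins are small proteins that fit into the active site of cysteine proteases such as the lysosomal cathepsins and block it. The type 2 cystatins are secreted, and their genes lie side by side in a cluster. Several members of the cluster are expressed mainly in the male reproductive tract and lack parts of the protease binding surface that the founding member, cystatin C, has. In the seminiferous tubule, Sertoli cells are the somatic cells that nurse the germ cells, and spermatids are the haploid germ cells that shape themselves into sperm. Cathepsin L is a known product of Sertoli cells.

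All 6 genes lay within 125 kb of chromosome 2 (mm9) and are annotated as protein coding. *Cstl1* (ENSMUSG00000055177) was listed at chr2:148576094-148581866, *Cst12* (ENSMUSG00000027443) at chr2:148615097-148619282, *Cst8* (ENSMUSG00000027442) at chr2:148624521-148631331, *Cst13* (ENSMUSG00000036924) at chr2:148645817-148656146 and *Cst9* (ENSMUSG00000027445) at chr2:148660883-148664474, all on the plus strand. *Cst3* (ENSMUSG00000027447) was listed at chr2:148697458-148701428 on the minus strand. None of the 6 spans overlapped another listed gene. No word of 50 bases, the length of a read, in their annotated transcripts occurred in a transcript of another of the 6 or, on either strand, of any other protein-coding gene. Between pairs of the 6, 54.5% to 65.0% of the aligned coding bases were identical. The closest pair was *Cst9* and *Cst12*, with 65.0%, followed by *Cst13* and *Cstl1*, with 64.6%.

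The total count on genes lay between 3994026 and 13559548 per mouse, with a median of 7103531, so a count of 0 in both mice of an age allows at most 0.162 to 0.303 CPM at 3 counts. The summed RPKM of 12 Sertoli cell genes found of 13 listed was 1354 to 1628 at PND 7 and 551 to 595 at PND 28. That of 10 spermatid genes was 3.19 to 4.99 at PND 7 and 9444 to 11504 at PND 28. Of these spermatid genes, 6 and 8 were at 0 counts in the PND 7 mice. Several libraries stood apart from the other mouse of their age. PND 14 mouse 1 had a spermatid sum of 483 RPKM against 23.0 in PND 14 mouse 2 and 23.1 to 23.8 at PND 17. *Crisp1*, a gene of the epididymal epithelium, had 466 counts in PND 7 mouse 2 and 2430 counts in PND 17 mouse 1, against 1 to 9 counts in the other 8 mice. Of 12 epididymal genes, 11 were at 0 counts in PND 7 mouse 2, 4 in PND 17 mouse 1 and 2 in PND 28 mouse 1. PND 21 mouse 1 was low in several abundant genes against PND 21 mouse 2, as given below. In the authors' read statistics it had the lowest mapping rate of all mice and more reads on introns than PND 21 mouse 2. Whether this shaped its values was not tested.

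*Cst9* and *Cst12* were among the most abundant messages of the young testis, and *Cst3* held a lower, middle level. *Cst8*, *Cst13* and *Cstl1* had their highest levels at PND 28, where *Cst8* reached the level of *Cst12*. The level of each gene in every mouse is plotted by age.

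**Figure D1:**
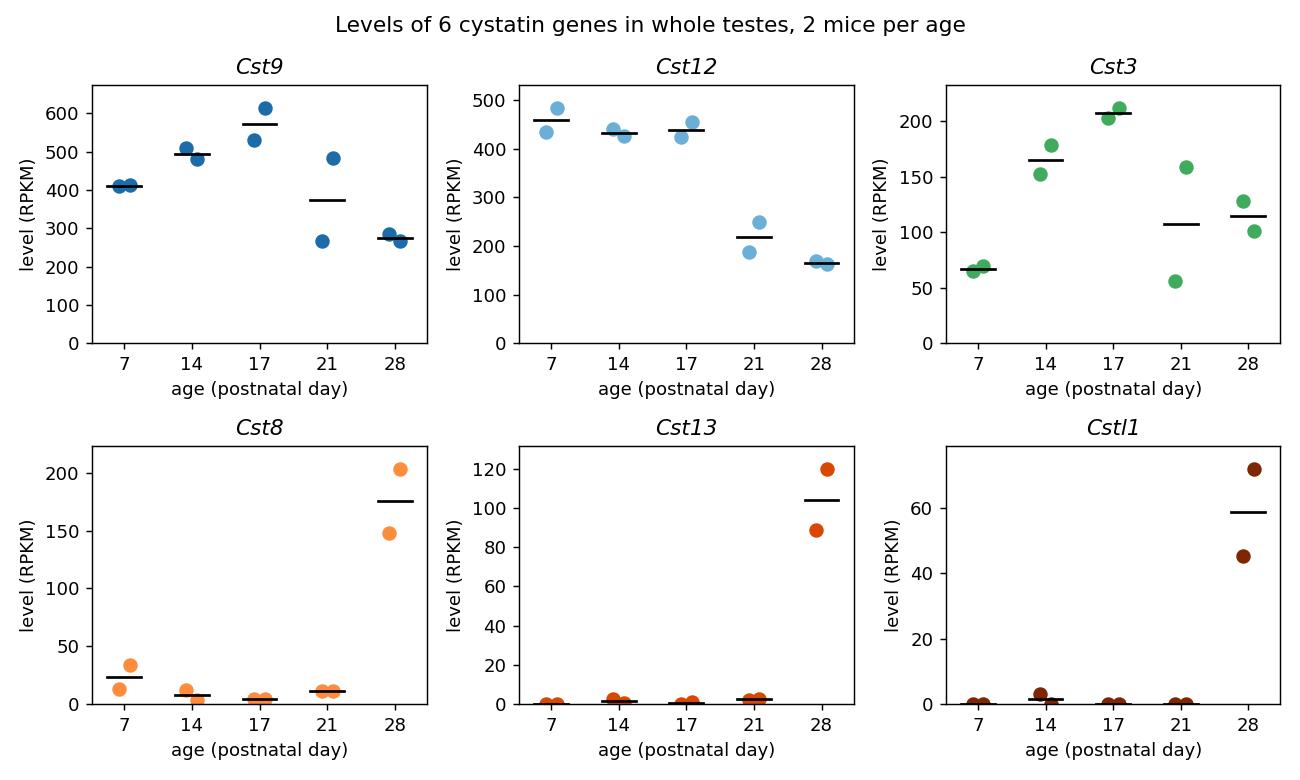
Level in RPKM (vertical axis, from 0, its own scale in each panel) of the 6 cystatin genes against age in postnatal days, with 1 point per mouse and a line at the mean of the 2 mice of an age. *Cst9* and *Cst12* were at 410.0 to 482 RPKM at PND 7, whereas *Cst8*, *Cst13* and *Cstl1* were highest in both PND 28 mice.

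*Cst3* encodes cystatin C, the secreted inhibitor of cathepsins found in most tissues and body fluids. It measured 65.3 and 69.8 RPKM in the PND 7 mice, 152 and 179 at PND 14 and 203 and 212 at PND 17. At PND 21 the mice differed, with 56.4 RPKM in mouse 1 and 159 in mouse 2, and at PND 28 they had 128 and 101. The mice of PND 14 and of PND 17 were each above both PND 7 mice, and those of PND 21 spanned the range from below PND 7 to the level of PND 14. The log2 fold change of *Cst3* was 1.19 (SE 0.41) from PND 7 to PND 14 and 0.40 (SE 0.41) from PND 14 to PND 17. It was -0.78 (SE 0.41) from PND 17 to PND 21, which became -0.17 without PND 21 mouse 1 and -1.86 without PND 21 mouse 2. From PND 21 to PND 28 it was 0.27 (SE 0.41), and -0.32 and 1.34 when the same mice were left out, so its direction rests on which PND 21 mouse is used. PND 28 stood above PND 7 with a log2 fold change of 1.08 (SE 0.41). By mean level PND 17 was first and PND 14 next, with no overlap of mice, followed by PND 28, PND 21 and PND 7, where each age overlapped the next one. Macrophages also make cystatin C, and the summed RPKM of 8 macrophage genes was 41.1 to 49.0 at PND 7, 72.9 to 97.1 at PND 17, 41.5 and 76.9 in PND 21 mice 1 and 2, and 51.2 to 57.2 at PND 28. Of the PND 21 mice, the one lower in *Cst3* was thus also the lower in macrophage genes. This was not particular to macrophages, since mouse 1 was also below mouse 2 in the sums of other somatic cells. These were 829 against 936 RPKM for the Sertoli cell genes, 110 against 204 for 5 Leydig cell genes and 54.4 against 80.2 for 3 peritubular myoid cell genes. The part of macrophages in the level of *Cst3* was not tested.

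*Cst9* encodes testatin, first described in the pre-Sertoli cells of the fetal mouse testis. It measured 410.0 and 413 RPKM at PND 7, 510 and 480 at PND 14 and 531 and 613 at PND 17. At PND 21 it had 266 RPKM in mouse 1 and 483 in mouse 2, and at PND 28 it had 284 and 266. Every mouse up to PND 17 was above both PND 28 mice, while PND 21 mouse 1 was at the PND 28 level and PND 21 mouse 2 at the PND 14 level. *Cst9* ranked 12 by mean level among 22380 protein-coding genes at PND 7, 9 at PND 17 and 97 at PND 28. Its log2 fold changes were 0.16 (SE 0.30), 0.29 (SE 0.30), -0.46 (SE 0.30) and -0.25 (SE 0.30) for the 4 steps in order of age. The third of these, PND 17 to PND 21, became -0.02 when PND 21 mouse 1 was left out and -1.08 when mouse 2 was. Over the whole course, from PND 7 to PND 28, it was -0.26 (SE 0.30) after TMM normalization and -0.58 when scaled by library totals, the scaling closest to RPKM. The last step had the opposite sign, 0.36, without PND 21 mouse 2, and was -0.67 without PND 21 mouse 1.

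*Cst12* belongs to the group of cystatins related to *Cst8* and is named CRES3 in RefSeq's synonyms. It measured 435 and 482 RPKM at PND 7, 440.2 and 426 at PND 14 and 423 and 454 at PND 17. The values were 187 and 249 at PND 21 and 168 and 163 at PND 28. The ages fell into an upper set, PND 7 to PND 17, whose mice overlapped one another, and a lower set, PND 21 and PND 28, with no overlap between the sets. The step from PND 17 to PND 21 had a log2 fold change of -0.87 (SE 0.23), and -0.60 and -1.21 without PND 21 mouse 1 or 2. Between PND 7 and PND 28 it was -1.14 (SE 0.23), a fold of 2.20, and -1.46 by library totals. *Cst12* ranked 11 among protein-coding genes at PND 7 and 248 at PND 28.

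The balance between these neighbours changed with age. *Cst9* stood at 0.943 and 0.856 times the RPKM of *Cst12* in the PND 7 mice, 1.16 and 1.13 at PND 14, 1.26 and 1.35 at PND 17, 1.42 and 1.94 at PND 21 and 1.69 and 1.63 at PND 28. Every mouse from PND 14 on had more *Cst9* than *Cst12*, and both PND 7 mice had less. Because the ratio is taken within a mouse, it does not depend on how the libraries were scaled. PND 21 mouse 1, the mouse with low *Cst9*, was with 1.42 above all younger mice.

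Beside the sum of the Sertoli cell genes, both genes followed different courses. The level of *Cst12*, divided by the Sertoli sum of the same mouse, was 0.267 and 0.356 at PND 7 and 0.305 and 0.274 at PND 28, and its 10 values lay between 0.215 and 0.356 with no ordering by age. That of *Cst9* was 0.252 and 0.305 at PND 7 and 0.516 and 0.448 at PND 28, with the PND 28 mice above both PND 7 mice. For *Cst3* the ratio was 0.0401 and 0.0516 at PND 7 and 0.232 and 0.170 at PND 28. The Sertoli list itself was uneven within an age, at 2050 RPKM in PND 14 mouse 1 and 1450 in PND 14 mouse 2, and clusterin (*Clu*) made up 398 and 140 RPKM of these sums. Its genes also fell at unlike rates. *Aard* went from 568 and 470 RPKM at PND 7 to 134 and 120 at PND 28, and *Sox9* from 18.7 and 22.3 to 1.17 and 2.67. The course of each ratio therefore depends on the genes summed, and against single genes of the list it can differ.

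*Cst8* encodes CRES, the cystatin-related epididymal spermatogenic protein, known from spermatids and from the first segment of the epididymis. Among the 3 genes with their highest level at PND 28, it was the only one with counts in the PND 7 mice. It measured 13.2 and 33.9 RPKM at PND 7, 12.6 and 4.05 at PND 14, 4.28 and 4.22 at PND 17, 11.3 in both mice at PND 21 and 148 and 203 at PND 28. Both PND 28 mice were far above all others, and PND 7 came next, above PND 21, PND 14 and PND 17. The counts were 109 and 194 at PND 7, 38 and 59 at PND 21 and 1098 and 877 at PND 28. In each PND 7 mouse, by the barcode with the higher number, 4 of the 8 listed exon intervals held more than 10 reads, against 7 at PND 28. The PND 28 mice had far more counts, so these numbers of intervals are not directly comparable. The barcodes of a PND 7 mouse gave 15.0 and 11.4 RPKM in mouse 1 and 39.3 and 28.5 in mouse 2, so both of mouse 2 were above both of mouse 1.

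The log2 fold change of *Cst8* from PND 21 to PND 28 was 4.18 (SE 0.51), a fold of 18.1, and lay between 3.94 and 4.37 when single mice were left out. From PND 7 to PND 28 it was 3.26 (SE 0.47), and 4.01 without PND 7 mouse 2, the mouse with 466 counts of *Crisp1*. The earlier step, from PND 7 to PND 14, was -1.57 (SE 0.48). Leaving out PND 7 mouse 2 gave -0.81, and leaving out PND 14 mouse 1, the mouse with spermatid transcripts, gave -2.56. In PND 7 mouse 1, *Crisp1* had 3 counts and *Adam7*, another epididymal gene, had 5, while 9 of the 12 epididymal genes were at 0. There the level of *Cst8* was 13.2 RPKM, or 7.51% of its PND 28 mean. In the same mouse 6 of the 10 spermatid genes were at 0 and the highest of the others was at 1.22% of its PND 28 mean. The source of the *Cst8* reads at PND 7 was not tested. In PND 17 mouse 1, where *Crisp1* was highest of all, *Cst8* was at 4.28 RPKM, beside 4.22 in PND 17 mouse 2.

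*Cst13* encodes cystatin T, and *Cstl1* a cystatin-like protein of the same family. *Cst13* had 0 counts in both PND 7 mice, 16 and 4 at PND 14, 1 and 3 at PND 17, 6 and 14 at PND 21 and 604 and 475 at PND 28. In RPKM these were 2.67 and 0.74 at PND 14, 0.10 and 0.98 at PND 17, 1.93 and 2.91 at PND 21 and 88.6 and 120 at PND 28. The PND 28 mice lay apart from all others, and the mice of PND 14, 17 and 21 overlapped. All 4 listed exon intervals held more than 10 reads in both PND 28 mice and none did at any other age. From PND 21 to PND 28 the log2 fold change of *Cst13* was 5.58 (SE 0.59), a fold of 47.8. Against the floor of 3 counts over both PND 7 mice, it was at least 558-fold higher at PND 28 than at PND 7, and at least 238-fold without PND 7 mouse 1 and 320-fold without PND 7 mouse 2.

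*Cstl1* had 287 and 264 counts in the PND 28 mice, or 45.4 and 71.8 RPKM, and 0 counts in 7 of the other 8 mice. The exception was PND 14 mouse 1, with 17 counts or 3.06 RPKM, over 2 of the 10 listed exon intervals with more than 10 reads. In both PND 28 mice 6 intervals passed that number. *Cstl1* was at least 165-fold higher at PND 28 than at PND 21 and at least 291-fold higher than at PND 7, each against the floor of 3 counts over both mice of the earlier age. The bound against PND 21 was at least 69.9-fold without PND 21 mouse 2 and 95.4-fold without PND 21 mouse 1, and that against PND 7 was 124-fold without PND 7 mouse 1 and 167-fold without PND 7 mouse 2. Depth at PND 21 was the lowest of the ages, and a level of up to 0.303 CPM there would not have been seen.

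In both PND 28 mice *Cst8* and *Cst13* stood in a close proportion. *Cst13* stood at 0.599 and 0.590 times the RPKM of *Cst8*, against at most 0.259 in any younger mouse. At PND 21, when round spermatids are the most advanced germ cells, the late cystatin genes were spread out. *Cst8* was at 6.41% of its PND 28 mean in both mice, *Cst13* at 1.85% and 2.79% and *Cstl1* at 0. The spermatid genes at the same age fell apart in a like way. *Acrv1*, an acrosomal protein gene, was at 19.3% and 14.0% and *Catsper1*, a sperm calcium channel gene, at 35.1% and 19.9%. The protamine gene *Prm1* was at 0.559% and 0.570% and the transition protein gene *Tnp2* at 0.612% and 0.932%, both of which pack the DNA of elongating spermatids. By these values *Cst13* and *Cstl1* lay nearer to the packing genes than to the acrosomal gene, with *Cst13* above both packing genes. *Cst8* lay between these and the acrosomal gene, at the level of the spermatid gene *Odf1*, 9.24% and 6.08%. At PND 7 *Cst8* was higher still, at 7.51% and 19.3%, so its PND 21 value gives no place in the order of spermatid genes. The PND 21 value of *Cst13* rests on 6 and 14 counts and overlapped that at PND 14, 2.56% and 0.710%. *Cstl1* had no count at PND 21, so the places of these genes are not settled either.

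PND 14 mouse 1 held all 3 late genes together. *Cst8* was there at 7.15% of its PND 28 mean, *Cst13* at 2.56% and *Cstl1* at 5.22%, while in PND 14 mouse 2 they were at 2.31%, 0.710% and 0%. The 10 spermatid genes were at 3.10% to 10.4% in mouse 1, with a median of 4.27%, and at a median of 0.272% in mouse 2. *Prm1* had 479 counts in mouse 1 and 8 in mouse 2. The 3 cystatin genes in this mouse were therefore within or just under the range of the spermatid genes, and their part in the PND 14 values is given by leaving the mouse out. Without it, *Cstl1* was at 0 counts at every age before PND 28, and the log2 fold change of *Cst8* from PND 14 to PND 17 changed from -0.87 to 0.09. *Cst13* was at least 6.64-fold higher at PND 14 than at PND 7 with both mice, and 3.06-fold with mouse 2 alone. The bound was 2.84-fold without PND 7 mouse 1 and 3.81-fold without PND 7 mouse 2.

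**Figure D2:**
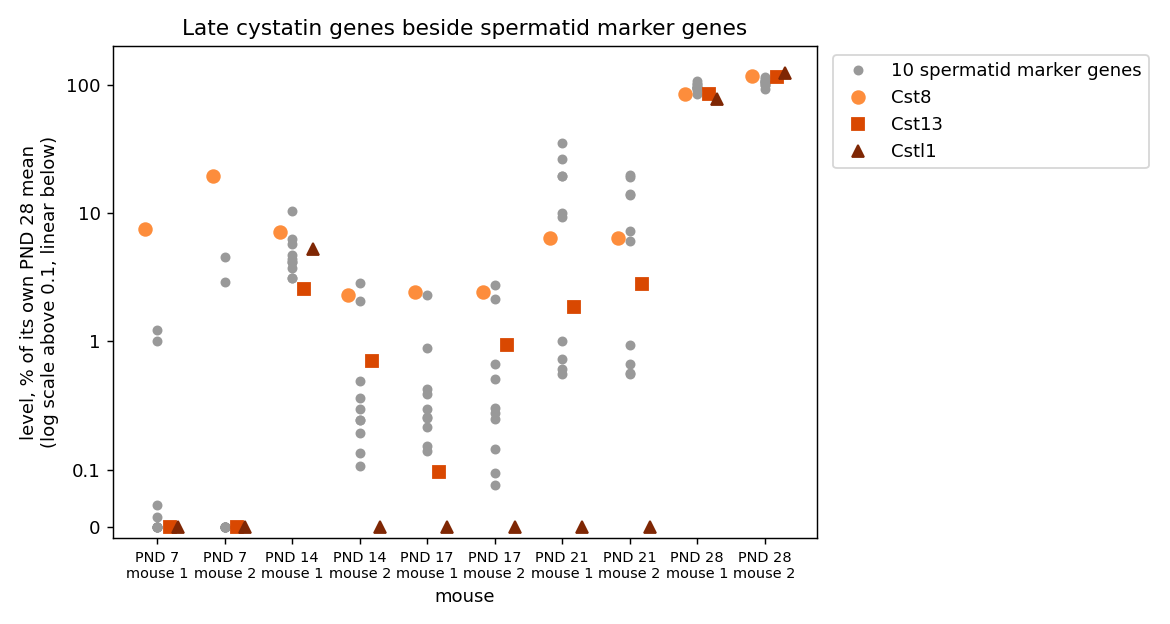
Level of each gene as a percentage of its own mean at PND 28 (vertical axis, logarithmic above 0.1% and linear below) in each of the 10 mice (horizontal axis), with grey points for 10 spermatid genes and coloured symbols for *Cst8*, *Cst13* and *Cstl1*. The late cystatin genes stood at 2.56% to 7.15% in PND 14 mouse 1, and at PND 7 *Cst8* lay above all spermatid genes in both mice.

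Promoter windows are shown for the 3 late genes and, for contrast, for *Cst9* and *Cst12*, because the late genes were all highest at PND 28 and these neighbours were not. Each window runs from 250 bases before to 50 bases after the start of the RefSeq gene in GRCm38.p6, on the strand of the gene, and each was found once, without a mismatch, on mm9 chromosome 2. There the windows lie at chr2:148624325-148624624 for *Cst8*, chr2:148645585-148645884 for *Cst13*, chr2:148575847-148576146 for *Cstl1*, chr2:148660633-148660932 for *Cst9* and chr2:148614851-148615150 for *Cst12*. Capitals mark words of 8 bases that, read on either strand, occurred in all 3 late windows and in none of the windows of *Cst3*, *Cst9* and *Cst12*.
Cst8: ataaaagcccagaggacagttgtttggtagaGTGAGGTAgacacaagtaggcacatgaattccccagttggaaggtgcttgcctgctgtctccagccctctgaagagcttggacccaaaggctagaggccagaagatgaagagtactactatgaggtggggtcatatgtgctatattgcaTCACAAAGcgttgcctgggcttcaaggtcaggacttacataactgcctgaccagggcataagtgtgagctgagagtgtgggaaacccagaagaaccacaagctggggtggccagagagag
Cst13: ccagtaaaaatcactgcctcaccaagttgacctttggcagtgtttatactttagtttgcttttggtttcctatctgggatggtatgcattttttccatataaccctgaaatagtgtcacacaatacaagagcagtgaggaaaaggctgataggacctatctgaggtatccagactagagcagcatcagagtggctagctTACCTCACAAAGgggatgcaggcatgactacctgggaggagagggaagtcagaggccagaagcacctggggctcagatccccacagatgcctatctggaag
Cstl1: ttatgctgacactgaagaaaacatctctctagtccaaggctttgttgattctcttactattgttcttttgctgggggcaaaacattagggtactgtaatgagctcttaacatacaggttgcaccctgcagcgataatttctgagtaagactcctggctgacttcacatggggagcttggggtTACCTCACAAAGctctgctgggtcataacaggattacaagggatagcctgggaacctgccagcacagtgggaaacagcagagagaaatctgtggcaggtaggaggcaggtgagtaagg
Cst9: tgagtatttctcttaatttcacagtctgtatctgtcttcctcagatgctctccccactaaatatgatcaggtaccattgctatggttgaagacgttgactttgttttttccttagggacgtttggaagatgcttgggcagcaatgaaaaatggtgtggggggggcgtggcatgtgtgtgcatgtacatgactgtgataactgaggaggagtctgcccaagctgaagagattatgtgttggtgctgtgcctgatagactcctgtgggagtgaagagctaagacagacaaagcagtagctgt
Cst12: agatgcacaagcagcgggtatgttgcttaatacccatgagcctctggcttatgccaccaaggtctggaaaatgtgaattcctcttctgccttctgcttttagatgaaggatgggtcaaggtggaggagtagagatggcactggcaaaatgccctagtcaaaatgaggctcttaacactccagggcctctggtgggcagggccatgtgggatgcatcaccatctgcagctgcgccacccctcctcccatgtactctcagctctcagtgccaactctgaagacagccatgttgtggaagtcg

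A pair of words met this condition, TCACAAAG and TACCTCAC, and no word of 8 bases was common to *Cst3*, *Cst9* and *Cst12* alone. TCACAAAG lay on the strand of the gene in all 3 late windows, from base -70 to -63 of *Cst8*, -47 to -40 of *Cst13* and -64 to -57 of *Cstl1*, counted from the RefSeq start. The listed spans of the 3 late genes begin at other bases, so these distances hold for the RefSeq starts only. TACCTCAC overlapped it in *Cst13* and *Cstl1*, whose windows shared the run TTACCTCACAAAG. In *Cst8* it lay apart, on the opposite strand from -219 to -212. Searched on both strands, TCACAAAG occurred in 1.88% and TACCTCAC in 0.743% of 32851 promoter windows of the same length. The full cAMP response element TGACGTCA, in 1.79% of all windows, and its shorter form TGACG, in 20.8%, occurred in none of the 6 windows. TATAAA, in 13.6% of all windows, occurred in that of *Cst13* alone, on the opposite strand from -208 to -203. These matches describe letters in the windows and do not show a bound site.

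The word TCACAAAG was picked from the sequences of genes with known levels, so its presence in the late windows is no test, but the levels of other genes were not used to pick it. Outside the 6 cystatins, 179 genes tested in the fit had a window with TCACAAAG, and 64 of them, 35.8%, passed the threshold as higher at PND 28 than at PND 21 in edgeR's quasi-likelihood test (Benjamini-Hochberg adjusted p under 0.05 and at least a 2-fold change). Over all 10769 genes with a window this was 7.27%. From PND 17 to PND 21 the shares were 25.7% and 8.89%. Windows with the word were poorer in G and C, with a median of 48.0% against 52.7% over all windows. Among windows with under 50% G or C, 28 of 66 genes with the word, 42.4%, were higher at PND 28 than at PND 21, against 13.8% of all 1979 such genes. For TACCTCAC the share higher at PND 28 than at PND 21 was 18.9%, or 14 of 74 genes, in windows of any composition, beside the same 7.27% over all windows, and 28.6%, or 6 of 21, in windows with under 50% G or C. Genes are not independent replicates, and these shares are given as a description.

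The make-up of the family's transcripts changed between PND 21 and PND 28. *Cst9* and *Cst12* together gave 91.5% and 89.6% of the summed RPKM of the 6 genes at PND 7, 80.9% to 86.7% from PND 14 to PND 21, and 52.5% and 46.4% at PND 28. The late genes gave 32.7% and 42.6% at PND 28 and at most 3.40% in any younger mouse. The sum itself was 923 and 999 RPKM at PND 7 and 862 and 925 at PND 28, so these ages differed little in total. It was highest at PND 17, with 1163 and 1284 RPKM, and lowest in PND 21 mouse 1, with 523 RPKM against 905 in PND 21 mouse 2.

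**Figure D3:**
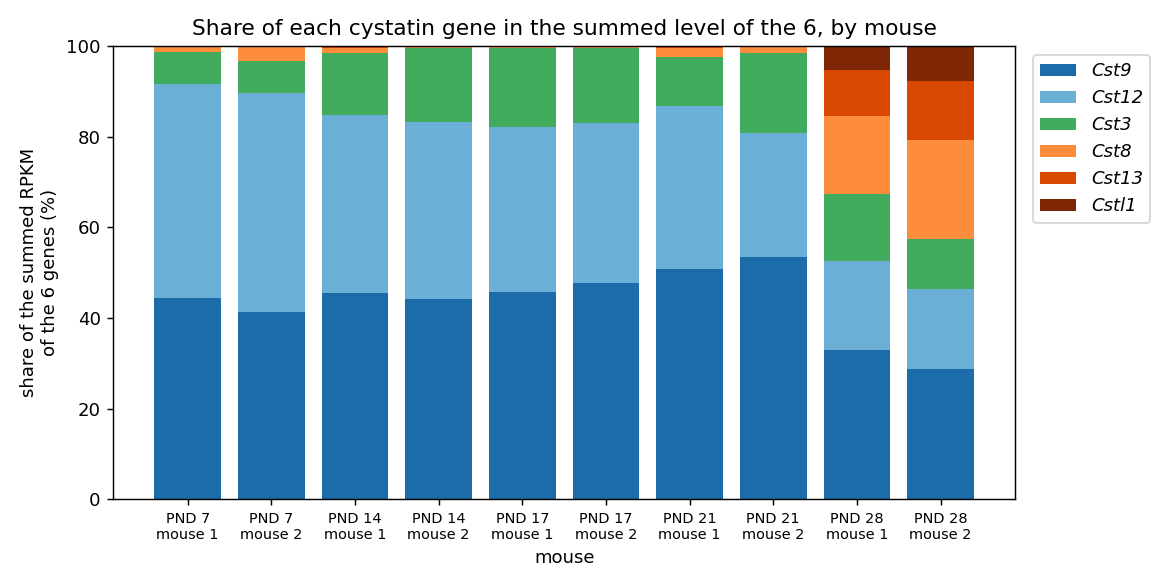
Share in percent (vertical axis, from 0 to 100) of each of the 6 cystatin genes in their summed RPKM, with 1 stacked bar for each of the 10 mice (horizontal axis). *Cst8*, *Cst13* and *Cstl1* together made up 32.7% and 42.6% of the bars of the PND 28 mice and at most 3.40% of the others.

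Genes of both patterns lie next to each other in the cluster. *Cst12* is followed by *Cst8* and *Cst13*, and then by *Cst9*. Between *Cstl1* and *Cst10*, the first and the last cystatin-named gene of the cluster, 10 other genes were listed, of which 3 had a mean of at least 1 RPKM over the 10 mice and 2, *Cst10* and the pseudogene *Gm14129*, had no count. The 3 were *Cst11*, *8030411F24Rik* and *9230104L09Rik*, the latter pair named *Cstdc1* and *Cstdc2*, for cystatin domain, in RefSeq. *Cst11*, which encodes a further CRES-like protein, had 6 and 33 counts at PND 7 and 0 to 21 in the older mice. Its highest value, 7.73 RPKM, was in PND 7 mouse 2, the mouse that was also highest in *Cst8* before PND 28 and that held *Crisp1*.

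**Figure D4:**
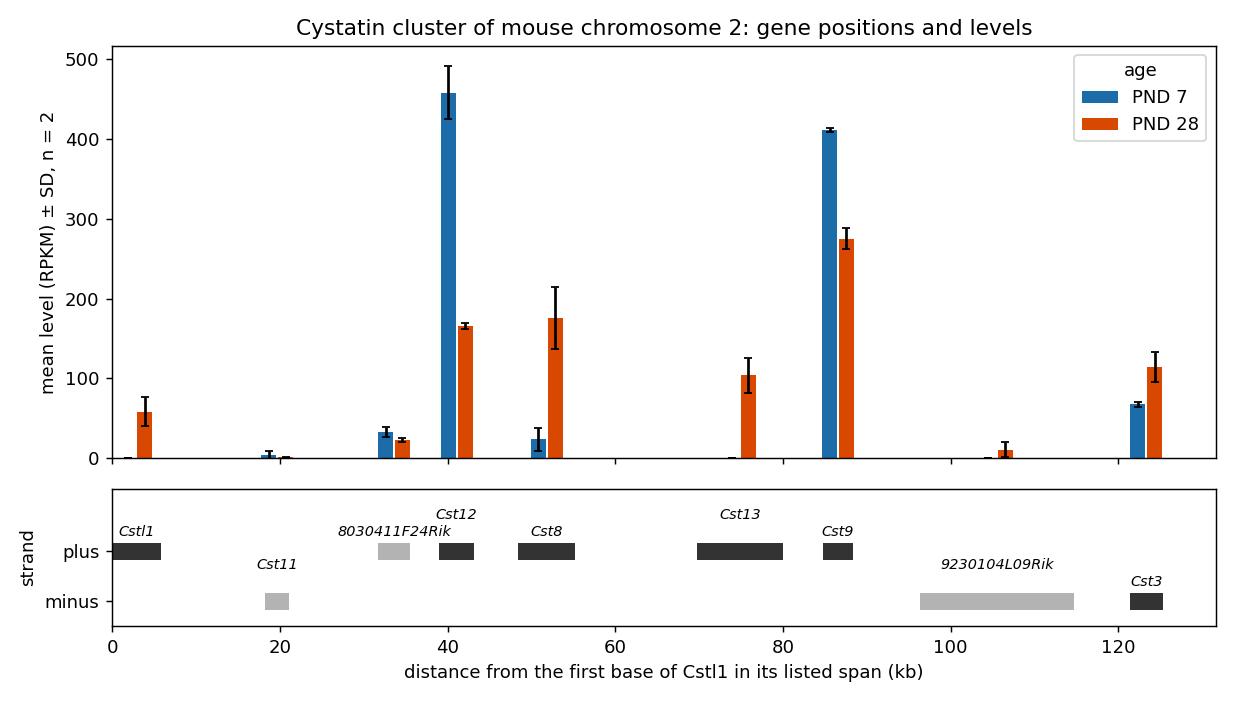
Upper part, mean level in RPKM (vertical axis, from 0) with the SD of 2 mice at PND 7 and PND 28 for the 6 cystatin genes and the 3 neighbours with a mean of at least 1 RPKM. Lower part, the listed span and strand of each gene against the distance in kb from the first base of *Cstl1* (horizontal axis, dark for the 6 genes and grey for the neighbours), which shows *Cst8* and *Cst13*, higher at PND 28, between *Cst12* and *Cst9*, higher at PND 7.

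Most other genes of the cystatin superfamily had few or no counts in the testis. Of 28 symbols listed, which include stefins, kininogens and fetuins, 21 were found, 13 had a count in any mouse and 5 passed the filter on low counts. *Cstb*, the cytoplasmic inhibitor stefin B, measured 25.6 to 29.6 RPKM at PND 7 and 16.5 to 23.6 at PND 28, and *8030411F24Rik* 28.0 to 37.0 at PND 7, 63.4 to 82.4 at PND 17 and 21.4 to 24.6 at PND 28. The kininogen gene *Kng2*, the neutrophil granule gene *Ngp* and the stefin genes *Stfa1*, *Stfa2* and *Stfa3*, named after their values were seen, were at 0 counts in every mouse.

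In edgeR's quasi-likelihood test over 16860 genes, 1 of the 5 was called higher at PND 14 than at PND 7, and none lower, where 13.5% of all genes tested were called higher and 5.43% lower. The gene was *9230104L09Rik*, with 0 counts at PND 7 and 8 and 9 at PND 14 (adjusted p = 0.0363), at least 5.99-fold higher against the floor of 3 counts, and 2.56-fold and 3.44-fold without PND 7 mouse 1 or 2. This call was lost in the fit with mouse number as a block and in other settings given at the end. The same gene was called higher at PND 28 than at PND 7 (adjusted p = 0.000281) and none was called lower, where 32.2% of all genes were called higher and 23.4% lower. *9230104L09Rik* had 140 and 18 counts, or 17.8 and 3.94 RPKM, at PND 28, so the mice of that age differed widely. The higher, PND 28 mouse 1, had counts for 10 of 12 epididymal genes, against 4 in mouse 2. The epididymal gene *Gpx5* had 63 counts in mouse 1 and 0 in mouse 2. Whether epididymal RNA added to the level of *9230104L09Rik* was not tested. At PND 28 the gene was at least 67.5-fold higher than at PND 7, 24.1-fold without PND 28 mouse 1, 28.8-fold without PND 7 mouse 1 and 38.7-fold without PND 7 mouse 2. It was thus another gene of the cluster without counts at PND 7, but its level at PND 21, 4.48 and 10.7 RPKM, overlapped that at PND 28. From PND 17 to PND 21, where 9.29% of genes were called higher and 1.05% lower, and from PND 21 to PND 28, with 7.37% higher and 0.297% lower, none of the 5 passed in this fit. At an unadjusted p under 0.05 there were 3 and 0 of the 5, beside 4758 and 4021 of all 16860 genes tested. DESeq2, run without the filter on the 13 genes with a count, called *8030411F24Rik* and *9230104L09Rik* in the first of these steps and none in the other. From PND 17 to PND 21 the log2 fold change of *8030411F24Rik* was -1.19 (SE 0.36, adjusted p = 0.0567 in edgeR). The median log2 fold change of the 5 from PND 7 to PND 28 was -0.18, against 0.10 over all genes tested.

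No gene at all was called between PND 14 and PND 17 in edgeR's quasi-likelihood test, which is 0% of 16860 genes. At an unadjusted p under 0.05 there were 769 genes, DESeq2 called 1 gene, and limma on log2(RPKM + 1) called 7. Without the filter on low counts, edgeR's test called 357 of 26788 genes. In that interval the log2 fold change was 0.10 (SE 0.23) for *Cst12*, 0.29 (SE 0.30) for *Cst9*, 0.40 (SE 0.41) for *Cst3*, -0.87 (SE 0.53) for *Cst8* and -2.25 (SE 0.92) for *Cst13*.

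The cysteine proteases that cystatins can block were measured in the same mice. All 11 listed genes had counts and 10 passed the filter. *Ctsl*, cathepsin L, was by far the most abundant of them, with 321 and 295 RPKM at PND 7, 422 and 422 at PND 14, 435 and 477 at PND 17, 225 and 256 at PND 21 and 176 and 199.55 at PND 28. Its mice at PND 21 and PND 28 were all below those at the younger ages. *Lgmn*, the asparaginyl protease legumain that some cystatins also inhibit, had 32.1 and 32.3 RPKM at PND 7, 65.7 and 80.7 at PND 17 and 19.9 and 20.4 at PND 28. *Ctsb*, cathepsin B, stayed between 31.8 and 41.2 RPKM up to PND 17, with 14.3 and 32.1 at PND 21 and 21.6 and 20.3 at PND 28. As in *Cst3* and *Cst9*, PND 21 mouse 1 had less than every mouse of the other ages. *Ctss*, cathepsin S, measured 6.72 and 15.8 RPKM at PND 7 and 11.8 and 14.7 at PND 28, which overlap.

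From PND 7 to PND 28, 3 of the 10 protease genes were called lower and none higher in edgeR's quasi-likelihood test, beside the 23.4% of all genes called lower. These were the cathepsin genes *Ctsf*, *Ctso* and *Ctsz*. *Ctsf* went from 23.0 and 31.4 RPKM to 10.3 and 7.00, with a log2 fold change of -1.29 (SE 0.32, adjusted p = 0.00503). *Ctso* went from 14.4 and 18.5 RPKM to 5.27 and 3.76, with -1.53 (SE 0.30, adjusted p = 0.00113). *Ctsz* went from 18.7 and 17.9 RPKM to 4.78 and 5.62, with -1.50 (SE 0.32, adjusted p = 0.00204). In each of the 3 both PND 28 mice were below both PND 7 mice. Without PND 28 mouse 2 the value of *Ctsf* was -1.02 with an adjusted p of 0.0571, which ends its call. The median log2 fold change of the 10 genes was -0.38, against 0.10 over all genes tested, and the share of 3 in 10 was near that of all genes.

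Between neighbouring ages none of the 10 protease genes was called in this fit, and DESeq2 called 0 in each step. At an unadjusted p under 0.05 in this fit there were 2, 0, 2 and 2 of the 10 in order of age. Over all 16860 genes tested these numbers were 6253, 769, 4758 and 4021. *Ctsl* and *Lgmn* passed the adjusted p but not the 2-fold limit from PND 17 to PND 21. Their log2 fold changes were -0.80 (SE 0.23, adjusted p = 0.0451) and -0.85 (SE 0.24, adjusted p = 0.0424). Over the same step *Cst12* changed by -0.87 (SE 0.23), *Cst3* by -0.78 (SE 0.41) and *Cst9* by -0.46 (SE 0.30). The values of *Cst3* and *Cst9* move with the PND 21 mouse used, as given above. *Lgmn* was higher at PND 14 than at PND 7 by 0.73 on the log2 scale (SE 0.24, adjusted p = 0.0490), also under 2-fold.

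**Figure D5:**
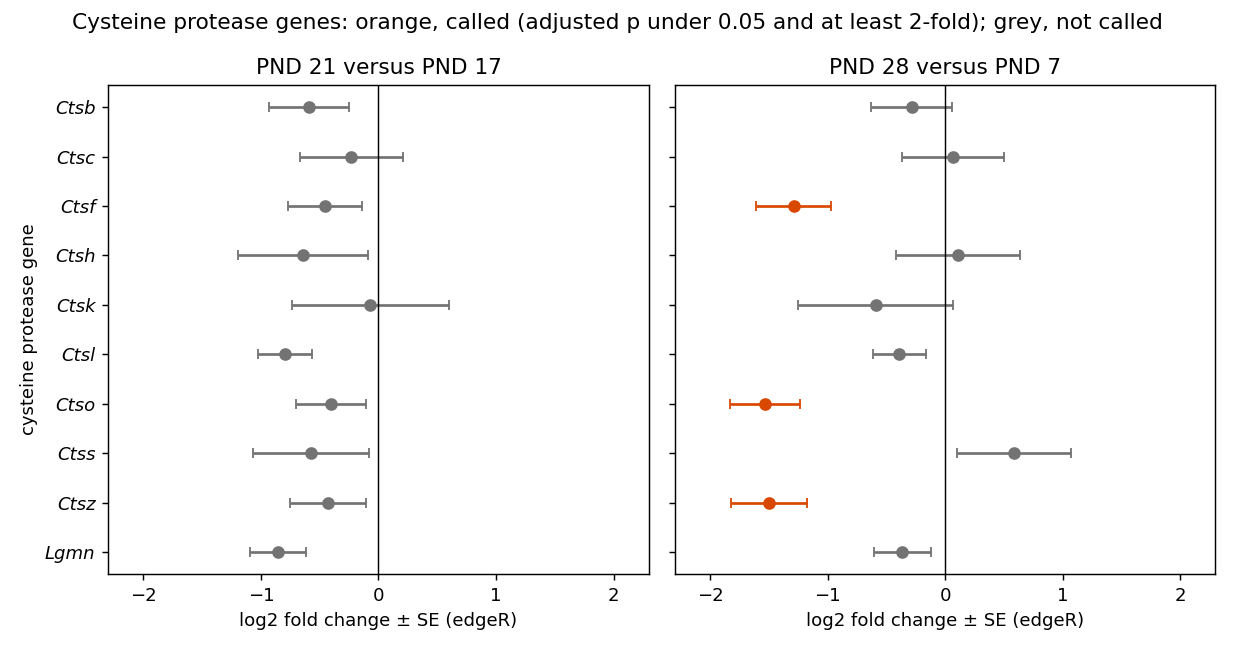
Log2 fold change with its standard error from edgeR's fit (horizontal axis) for 10 cysteine protease genes (vertical axis), on the left for PND 21 against PND 17 and on the right for PND 28 against PND 7. Orange points, *Ctsf*, *Ctso* and *Ctsz* on the right, passed an adjusted p under 0.05 and at least a 2-fold change, while on the left all 10 points are grey and below 0.

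The genes most like each cystatin over the 10 mice were taken as the 3 with the smallest root mean square difference in log2(RPKM + 1) after each gene was centred on its own mean, out of 14825 genes with a mean of at least 1 RPKM. For *Cst12* these were *Ubtf*, *Jak1* and *Kif5b*, with differences of 0.08 to 0.10. For *Cst9* they were *Sgce*, *Adipor2* and *Tm4sf1*, with 0.11 to 0.12, and for *Cst3* they were *Cxcr4*, *Serpina5* and *H2-D1*, with 0.23 to 0.25. *Cst13* was closest to *Ubl4b*, *Slfnl1* and *Lelp1*, with 0.29 to 0.34, and *Cstl1* to *Gm6760*, *1700012A03Rik* and *Fscn3*, with 0.19 to 0.28. *Cst8* had no gene as near, and *Pex5l*, *Clip4* and *Ccdc159* lay at 0.47 to 0.54. *Pex5l*, *Clip4* and *Ccdc159* shared with *Cst8* a mean at PND 7 above that at PND 17, 1.40 against 0.08 RPKM for *Pex5l*. They were picked for likeness to *Cst8* in these same mice, so the shared shape follows largely from the choice. Among the 6 themselves, the nearest pairs were *Cst9* with *Cst12*, at 0.35, and *Cst3* with *Cst9*, at 0.49. *Cst13* and *Cstl1* came next, at 0.67. *Cst9* with *Cst12* and *Cst13* with *Cstl1* were also the closest pairs in coding sequence, but other pairs did not follow this. *Cst9* with *Cstl1*, next in sequence with 63.4% of aligned bases identical, differed by 2.61 in level. *Cst3* with *Cst9*, near in level, had 56.7% identical. *Cst8* differed from *Cst13* by 1.30 and from *Cstl1* by 1.12. A likeness over 10 mice of 5 ages rests on the ages as much as on the mice and says nothing of a shared control.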

How the data were processed

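RNA without ribosomal RNA from 10 mice was sequenced by the authors as reads of 50 bases and aligned to mm9 with LifeScope. Reads with more than 10 alignments were dropped. The deposited count of a gene is the number of reads on its Ensembl exons, and the RPKM deposited beside it was also made by the authors. Another deposited column gives the number of exon intervals with more than 10 reads, which was copied as it stands. Whether strand was used in counting is not given in the sources used here.

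Symbols came from GENCODE M1. Counts of the 2 barcodes of a PND 7 mouse were summed and RPKM values averaged. Counts were fitted with edgeR 4.0.16 in R 4.3.3 (TMM, filterByExpr, quasi-likelihood, all 10 mice), and a gene was called at a Benjamini-Hochberg adjusted p under 0.05 over 16860 genes and at least a 2-fold change. Standard errors of log2 fold changes come from this fit, and CPM uses its scaled library sizes. Groups at 0 counts were given a floor of 3 counts over both mice, for counting error only. With 2 mice against 2, calls rest on the spread shared by all ages. The labels name separate animals.

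The 6 members, the lists of proteases, cystatin-domain genes and cell type markers and the rules were chosen with earlier results of these data known. Named genes were all members, list genes called or with a mean of at least 10 RPKM, neighbours with at least 1 RPKM, the 3 genes most like each member, and further list genes as examples. The 8-base words were chosen after the sequences were seen. Promoter windows are RefSeq's (GRCm38.p6), placed on mm9 by exact match. All 6 members had a window, and protein sequences were not used here.

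Alternatives were RLE or library totals for scaling, DESeq2 1.42.0, limma 3.58.1 on log2(RPKM + 1) or log2(RPKM + 0.1), no filter or at least 10 counts in 2 mice, the 4 mice of a comparison alone, separate PND 7 barcodes, a block for mouse number and each mouse left out. Scripts in Python 3.11.15 and R were tested on simulated data.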

Additional observations from a re-analysis of the deposited data

How the results depend on the processing

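All calls rest on 2 mice per age, and the depth at PND 21, the lowest of the ages, limits what could be seen of *Cstl1* there. The number of cysteine proteases called held in 21 of 21 alternatives from PND 7 to PND 28 within 1.5 times (2 to 3 genes), and was 0 in all alternatives for the steps from PND 7 to PND 14, PND 14 to PND 17 and PND 21 to PND 28. From PND 17 to PND 21 it ranged from 0 to 2 when single mice were left out, with *Ctsb* and *Lgmn* called only without PND 21 mouse 2. The cystatin-domain gene called from PND 7 to PND 28 was 1 in all 21 alternatives. From PND 7 to PND 14 the number was 1 in the fit reported, 0 with limma on log2(RPKM + 1), with the 4 mice alone, with the replicate block and without both mice high in *Crisp1* (added after the data were seen), 2 without a filter and with separate PND 7 barcodes, and 0 to 2 when single mice were left out. From PND 17 to PND 21 it was 0 in the fit reported, 1 with library totals, with either limma fit, with the 4 mice alone and with separate PND 7 barcodes, 2 with DESeq2 and without a filter, and 0 to 2 when single mice were left out. The cause of these changes was not tested.

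With the replicate block, *Ctsf*, *Ctso*, *Ctsz* (3 proteases) and *9230104L09Rik* (1 cystatin-domain gene) were called from PND 7 to PND 28 and 0 in every other comparison, so of the calls reported for both lists it ended that of *9230104L09Rik* at PND 14 alone. Over all genes tested, the deviations of mice with the same number correlated with r between -0.17 and 0.05. Single libraries that stood apart can shape these values, so they cannot show whether such mice share more than a number. Whether mice with the same number were processed together was not tested. With the numbers crossed for PND 14 against PND 17, the comparison with r = -0.17, 0 genes of either list were called.

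Over all genes, the number called from PND 17 to PND 21 was 1743 and fell to 266 without PND 17 mouse 2 and 576 without PND 17 mouse 1. From PND 21 to PND 28 it was 1292, and 312 without PND 21 mouse 2. Scaling by library totals moved the median log2 fold change of all genes from PND 7 to PND 28 from 0.10 to -0.22.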
